A study of Mus musculus with 12 samples.

Results

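The response of Mir22 knockout lung cells to nanoparticulate carbon black was read from 3 samples of Mir22 KO mice exposed to carbon black (nCB) and 3 samples of Mir22 KO mice given phosphate-buffered saline (PBS). These 6 samples, chosen by their titles, are 6 of the 12 samples of the series; the other 6 are 3 WT nCB and 3 WT PBS samples from wild-type mice. All 4 groups carry the strain label B6(Cg)-Tyrc-2J/ J and the age label 4 months, and the treatment text names mice of 2 months exposed for 1 month. The labels give no dose, no route and no account of how Mir22 was deleted. The cells were lung cells carrying CD11c, isolated with AutoMACS, an instrument that holds back cells tagged with magnetic beads, and the labels call them APC. Nothing in the labels tells whether the replicates were different animals. The SEs and p-values therefore cover only the variation among these samples, which may be technical.

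Carbon black is an insoluble particle, and inhaled particles of this kind are taken up in the airspaces mainly by alveolar macrophages, which carry CD11c as dendritic cells do. Macrophages that take up particles are known to release chemokines that draw in monocytes and neutrophils, proteases that cut the lung matrix, and lysosomal enzymes. A microRNA lowers the output of messenger RNAs that pair with its seed, a short stretch near its 5′ end. The 2 mature strands of mouse miR-22 are shown because they are what the knockout is labelled to lack. They are RefSeq sequences from the plus strand of GRCm38.p6, at chr11:75463734-75463755 for the 5p strand and chr11:75463772-75463793 for the 3p strand, written 5′ to 3′ with the seed (bases 2 to 8) in capitals.
mmu-miR-22-5p: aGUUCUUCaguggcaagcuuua
mmu-miR-22-3p: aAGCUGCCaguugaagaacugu
The 2 seeds differ, and neither strand nor the host transcript Mir22hg has a listed probe on this array, so the knockout label could not be checked on the deleted gene.

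RNA was measured on Illumina bead arrays, which read the light bound by short DNA probes. Of 45281 probes, 17346 were detected (p under 0.05) by 3 or more of the 12 arrays. With 1 probe per gene symbol and every probe without a symbol kept, they gave 12380 features, 9809 with a symbol and 2571 without. Mean intensity per array was 172 to 192 in Mir22 KO nCB and 156 to 200 in Mir22 KO PBS, and 31.4% to 34.4% of probes were detected on these 6 arrays. Across features, log2 intensities correlated at 0.985 to 0.990 between arrays of the same KO group and at 0.964 to 0.971 between Mir22 KO nCB and Mir22 KO PBS arrays. Itgax, the gene of CD11c, was detected on all 6 arrays, with log2 intensities of 6.00, 6.20 and 6.22 in Mir22 KO nCB and 5.87, 5.28 and 6.20 in Mir22 KO PBS. The groups overlapped, and the log2 difference of 0.36 ± 0.20 did not pass the test (adjusted p = 0.266). Here and below, a difference is Mir22 KO nCB minus Mir22 KO PBS on the log2 scale ± the SE from limma, with n = 3 per group and p-values adjusted by Benjamini-Hochberg over all features. Precision is limited by the small number of arrays.

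Of the 12380 features, 1076 (8.69%) were higher and 902 (7.29%) were lower in Mir22 KO nCB cells at an adjusted p under 0.05. The values of the 3 nCB samples and the 3 PBS samples did not overlap for 3776 features (30.5%), of which 1887 were higher and 1889 lower. Changes of at least 2-fold were mostly higher, with 284 features up and 111 down, and those of at least 4-fold more so, with 69 up and 7 down. At 8-fold or more stood 19 higher and 3 lower features. The median difference over all features was −0.013.

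**Figure D1:**
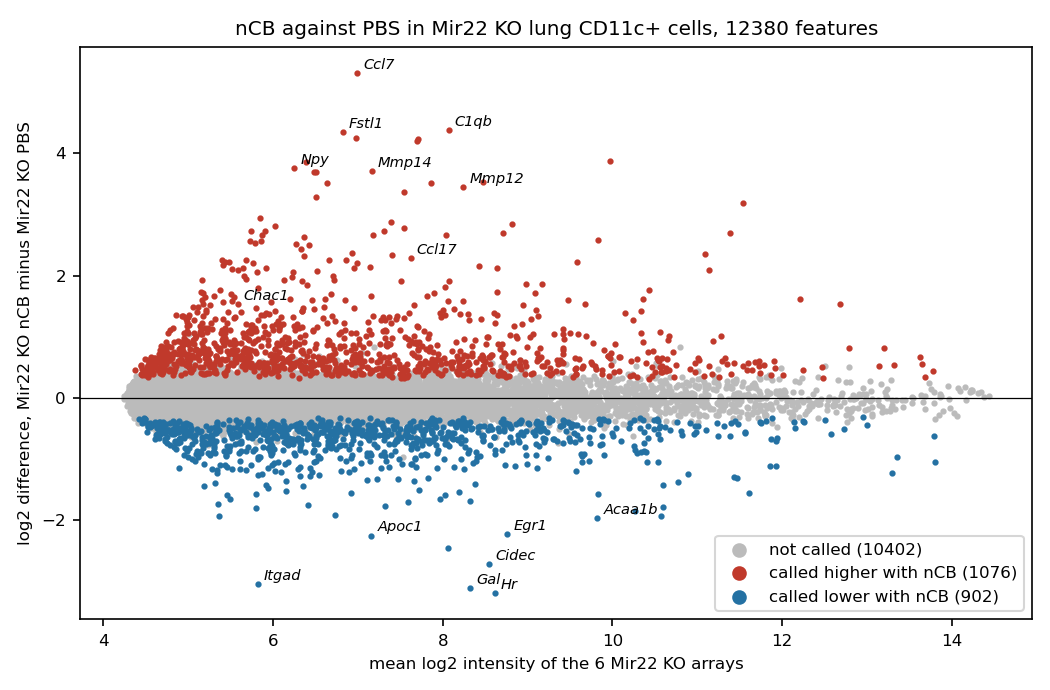
Each point is 1 of 12380 features, with the mean log2 intensity of the 6 Mir22 KO arrays on the horizontal axis and the log2 difference between Mir22 KO nCB and Mir22 KO PBS on the vertical axis. The 1076 features called higher (red) reach a difference of 5.31 (Ccl7), and the 902 called lower (blue) reach −3.19 (Hr).

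Ccl7, Fstl1, Pdpn and Npy were among the 15 largest rises. Ccl7, a chemokine that attracts monocytes, had log2 intensities of 9.97, 9.25 and 9.70 in Mir22 KO nCB, against 4.33, 4.35 and 4.31 in Mir22 KO PBS. No PBS array detected it, so its fold is a bound, at least 33.9-fold higher with nCB (difference 5.31 ± 0.18, adjusted p = 5.71e-11). This bound and every other bound given here hold for the main processing only. Across the alternatives the Ccl7 difference ran from 3.305 to 8.763. Npy, the gene of neuropeptide Y, was likewise undetected with PBS and was at least 11.9-fold higher with nCB. Fstl1, a secreted follistatin-like glycoprotein, read 8.91, 9.11 and 8.95 in Mir22 KO nCB against 4.37, 4.61 and 4.97 in Mir22 KO PBS, 20.3-fold higher. Its PBS value of 4.37 lay below the lowest intensity detected on that array (4.52). Across the alternatives the Fstl1 difference ran from 2.609 to 6.563, so its fold is uncertain. Pdpn, the membrane mucin podoplanin, read 10.09, 9.70 and 9.70 in Mir22 KO nCB and 5.03, 5.96 and 5.80 in Mir22 KO PBS, 18.8-fold higher. In each of these genes the lowest nCB sample lay more than 3 log2 units above the highest PBS sample.

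The other largest rises lay between 3.52 and 4.38 log2 units. They were the 3 chains of complement C1q, the metalloproteinase Mmp14, the growth factor gene Pdgfa, the small secreted protein gene Wfdc17, the creatine transporter Slc6a8, the vesicle membrane protein Syngr1, the cell cycle regulator Rgcc, the DNA translocase Zranb3 and AA467197. Wfdc17 read 12.03, 11.83 and 11.86 in Mir22 KO nCB and 7.96, 8.14 and 7.98 in Mir22 KO PBS. Slc6a8 read 8.25, 8.41 and 8.36 in Mir22 KO nCB, against 4.73, 4.41 and 4.77 in Mir22 KO PBS, where 2 of 3 arrays detected it. None of these genes overlapped between the groups, and all 15 kept their call under every alternative tried.

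The largest falls were smaller in log2 units than the largest rises. Hr, the corepressor Hairless, had log2 intensities of 7.12, 7.13 and 6.80 in Mir22 KO nCB against 10.21, 10.17 and 10.24 in Mir22 KO PBS, 9.11-fold lower (difference −3.19 ± 0.13, adjusted p = 3e-10). A further Hr probe differed by −1.29. Gal, the gene of the neuropeptide galanin, read 6.79, 6.55 and 6.96 in Mir22 KO nCB and 9.82, 9.74 and 10.06 in Mir22 KO PBS, 8.61-fold lower. Itgad, the alpha D integrin chain, was undetected on all 3 nCB arrays and read 7.06, 7.41 and 7.55 with PBS, at least 6.93-fold lower. Ppp1r9a, the actin-binding neurabin, was also undetected with nCB and was at least 3.42-fold lower. Next in size were the lipid droplet protein gene Cidec (−2.72), Wfdc10 (−2.45), the apolipoprotein gene Apoc1 (−2.25), the transcription factor gene Egr1 (−2.22), the peroxisomal thiolase Acaa1b (−1.96) and the keratin gene Krt79 (−1.93). The list closed with the glutamate transporter Slc1a3 (−1.91), Fos (−1.84), Amer2 (−1.79), the phosphatase gene Dusp1 (−1.78) and the protease gene Klk8 (−1.77).

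**Figure D2:**
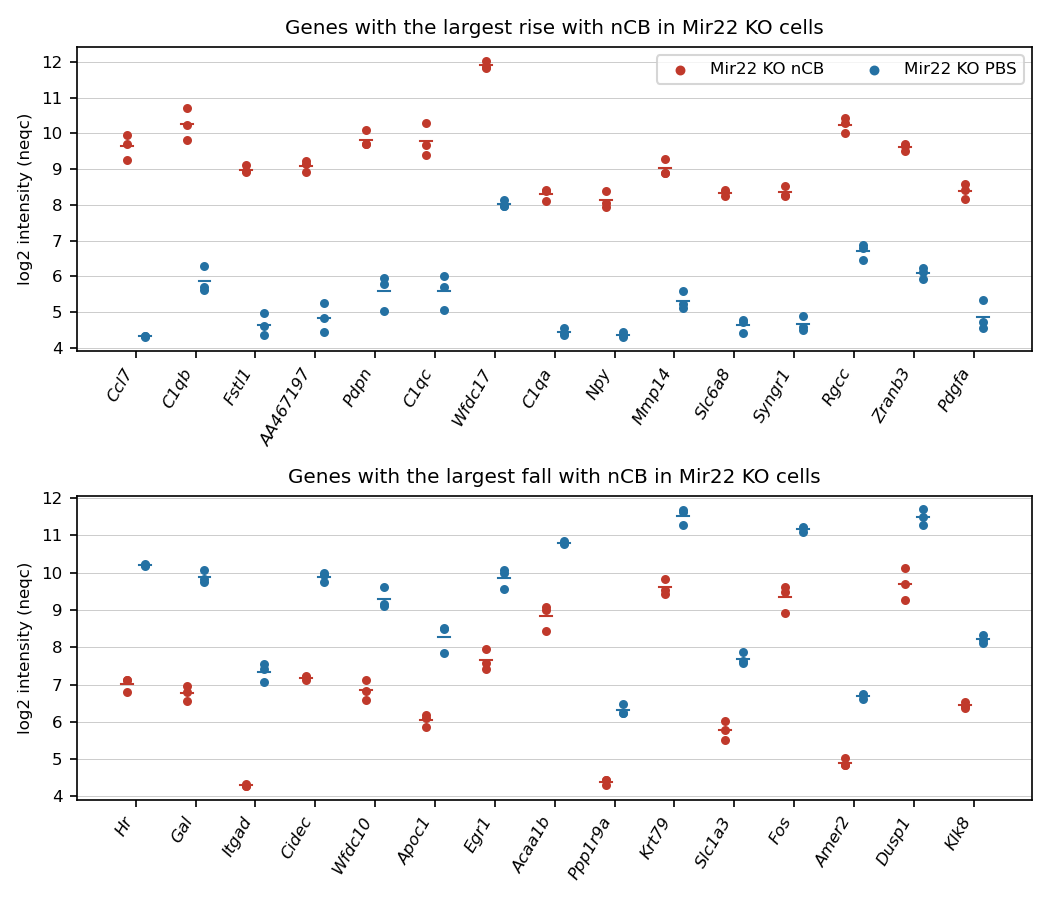
Log2 intensity per sample (points) and group mean (bars) of the 15 genes with the largest rise (top) and the 15 with the largest fall (bottom), with Mir22 KO nCB in red left of Mir22 KO PBS in blue. No gene's groups overlap, and Ccl7 shows the widest gap, with 9.25 to 9.97 in nCB samples and 4.31 to 4.35 in PBS samples.

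Markers of cell types were read before the other gene groups, since sorted cells can hold more than 1 type. In such bulk samples fewer cells of a type and less RNA per cell cannot be told apart. Of 16 measured markers of monocytes and interstitial macrophages 11 rose and none fell, beside 8.69% and 7.29% of all features, with a median difference of 0.72 (0.57 with undetected genes at their bound). The same shares of all features stand beside every list count of Mir22 KO cells below. Beside the C1q chains, Apoe, Itgam, Cx3cr1, Ccr2 and Tmem119 they included Fcrls (2.88), the membrane protein gene Ms4a7 (2.67) and the folate receptor gene Folr2, undetected with PBS and at least 2.97-fold higher. Their summed intensity was 5273 to 7666 in Mir22 KO nCB samples, against 2432 to 2953 in Mir22 KO PBS samples. Adgre1, Csf1r, Cd14, Fcgr1 and Lyve1 of the same list did not pass the test, with differences of −0.29 to 0.11.

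Alveolar macrophage markers fell in 8 of 17 measured and rose in 1, the cathepsin gene Ctsk, with a median of −0.32. Cidec, Krt79, the keratin gene Krt19 (−1.41), the ribonuclease gene Ear10 (−1.37), Il18 (−1.05), Pparg (−0.93), Plet1 (−0.90) and Cd2 (−0.74) fell. The surface genes Marco, Mrc1, Siglec1 and Itgax of this list did not pass the test, with differences of 0.44, −0.33, −0.14 and 0.36, and Siglecf was detected on 1 of the 6 arrays. The summed intensity of the whole list overlapped between groups, at 37752 to 42826 with nCB and 41113 to 42317 with PBS.

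Conventional dendritic cell markers rose in 5 of 14 measured and fell in none (median 0.35). The other 9 did not pass the test, among them Irf8 (0.32, adjusted p = 0.165), and differences went down to −0.26. Flt3 and Xcr1 of this list have no listed probe, and Zbtb46 was below the filter. The integrin gene Itgae read 7.57, 7.73 and 8.66 in Mir22 KO nCB against 5.90, 5.73 and 5.55 in Mir22 KO PBS, and Ccl17 8.61, 8.32 and 9.37 against 6.54, 6.45 and 6.45. Replicate 3 was the highest nCB sample for both and for Fscn1, Kit and Cd40. The summed intensity of the list was 1598 to 2412 with nCB and 888 to 1125 with PBS. Neutrophil markers rose in 4 of 11 and fell in 1 (median 0.26, or 0.18 at bounds), with a summed intensity of 3089 to 4493 with nCB and 1689 to 2650 with PBS. The chitinase-like gene Chil1 (2.13) and Lcn2 (2.00) rose most, while Csf3r, Cxcr2 and S100a9 did not pass the test and G0s2, also a lipid droplet gene, fell by 1.09. Without Mir22 KO nCB replicate 3, 2 members were called lower.

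Marker lists of other cells had few calls. Of lung epithelial markers, 2 of 12 rose, the surfactant protein gene Sftpd (1.54) and the cadherin gene Cdh1 (0.53), and Krt19 fell, with summed intensities of 8218 to 10326 with nCB and 5019 to 8602 with PBS. Cdh1 lost its call without Mir22 KO PBS replicate 2 or 3 or nCB replicate 1 or 2, leaving 1 of 12 called higher. Of 9 endothelial markers Vwf rose (1.17), with sums of 966 to 1294 with nCB and 787 to 1047 with PBS, and Pecam1 and Cdh5 did not pass the test (−0.46 and −0.53). Of 3 fibroblast and smooth muscle markers Acta2 rose (0.65) and the matrix proteoglycan gene Dcn fell (−1.43), with Pdgfra undetected on all KO arrays and sums of 156 to 231 with nCB and 185 to 204 with PBS. Acta2 lost its call without any 1 of the Mir22 KO PBS replicates and without Mir22 KO nCB replicate 2 or 3. Calls lower with 1 array left out numbered 2 for epithelial markers without Mir22 KO nCB replicate 3 or PBS replicate 1, and 1 for endothelial markers without nCB replicate 3. None of 5 B cell, 9 T and NK cell or 4 eosinophil, basophil and mast cell markers was called, and summed eosinophil, basophil and mast cell markers were 92 to 97 with nCB and 97 to 114 with PBS. Cd3g and Cd3e differed by 0.57 and 0.35. T and NK cell sums were 1161 to 1473 with nCB and 948 to 1268 with PBS, and B cell sums 219 to 417 with nCB and 288 to 470 with PBS. Of 7 platelet and red cell markers Pf4, also made by macrophages, rose (1.28), and of 6 plasmacytoid dendritic cell markers Tcf4 did (0.61). Platelet and red cell sums were 1704 to 6197 with nCB and 3089 to 3962 with PBS, and plasmacytoid dendritic cell sums 465 to 518 with nCB and 336 to 536 with PBS. The part of these markers in the results that follow was not tested.

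Chemokines that draw in monocytes were detected with nCB and undetected with PBS. Besides Ccl7, Ccl12 read 7.21, 6.57 and 7.52 and Ccl2 read 6.74, 6.38 and 6.51 in Mir22 KO nCB, while no PBS array detected either. They were at least 5.83-fold and 3.96-fold higher, so that 3 of 4 list members rose, and the fourth, Ccl8, was undetected on all 6 arrays. Of 13 other macrophage and dendritic cell chemokines 7 rose and 1 fell (median 0.60). Cxcl16, a membrane-bound chemokine for CXCR6 on T cells, rose by 2.77 and Ccl9 by 2.69. Ccl17, a ligand of the T cell receptor CCR4, rose by 2.29, Ccl3 by 2.15 and Ccl4, a macrophage inflammatory protein like Ccl3, by 1.81. Cx3cl1, the membrane-bound ligand of CX3CR1, fell to 5.43, 6.14 and 6.01 with nCB, against 7.14, 7.09 and 6.98 with PBS. It was 1 of 2 members called lower without Mir22 KO nCB replicate 3.

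Of 4 chemokines for neutrophils none was called higher in Mir22 KO cells and 1 was called lower. Cxcl2 read 5.99, 5.73 and 4.90 in Mir22 KO nCB and 7.58, 7.37 and 6.90 in Mir22 KO PBS, 3.35-fold lower (difference −1.75 ± 0.33, adjusted p = 0.00172), and a further probe differed by −1.04. Replicate 3 was the lowest sample in both groups. Cxcl1 overlapped between groups, at 5.37, 5.04 and 4.61 with nCB and 5.44, 5.73 and 4.92 with PBS (adjusted p = 0.325), and Ppbp and Cxcl15 were not called. Without Mir22 KO nCB replicate 1 the calls of lower genes in this list numbered 2. In WT cells the Cxcl2 difference was −0.02, and the difference between genotypes did not pass its test (adjusted p = 0.216).

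In the complement list 6 of 12 measured members rose and none fell, with a median of 0.42 (0.36 at bounds). C1qa, C1qb and C1qc encode the chains of C1q, the protein that starts the classical pathway, and all are also on the list of monocyte and interstitial macrophage markers. C1qb read 10.72, 9.82 and 10.24 in Mir22 KO nCB against 5.63, 6.30 and 5.70 in Mir22 KO PBS, a 20.9-fold rise. C1qc rose 18.4-fold and C1qa 14.4-fold. C1qa was detected on 1 of 3 PBS arrays, and across the alternatives its difference ran from 2.088 to 6.759, so this fold is uncertain. Replicate 2 was the lowest nCB sample for all 3 chains. Itgam, a chain of the complement receptor CR3, was undetected with PBS and at least 1.56-fold higher. C2, a protease of the pathway, rose by 1.33, and Cd59a, an inhibitor of the membrane attack complex, by 0.76. C4b, the factor B gene Cfb, properdin (Cfp), Serping1, Cd55 and C5ar1 did not pass the test, with differences of −0.27 to 0.07.

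Matrix proteases rose in 9 of 13 measured and fell in none (median 0.80). Mmp14, a membrane-bound collagenase, read 8.90, 8.89 and 9.28 in Mir22 KO nCB and 5.22, 5.11 and 5.60 in Mir22 KO PBS, 13.1-fold higher. Mmp12, the elastase of macrophages, read 10.16, 9.72 and 10.02 with nCB and 6.49, 6.17 and 6.87 with PBS, 11.0-fold higher (3.45 ± 0.31, adjusted p = 1.27e-06). The gelatinase gene Mmp2 (1.77), the urokinase gene Plau (1.69) and the collagenase gene Mmp13 (1.15) rose as well. The gelatinase gene Mmp9 rose by 0.80, and Adam8, Adam15 and Adam17, sheddases of surface proteins, by 0.94, 0.76 and 0.53. Protease inhibitors rose in 5 of 10 and fell in 1 (median 0.25). The metalloproteinase inhibitor genes Timp1 and Timp2 rose by 2.00 and 1.00, the cathepsin inhibitor gene Cstb by 0.82 and Spint1 by 0.43, while Timp3 fell by 0.62, a call lost without Mir22 KO PBS replicate 3 (adjusted p = 0.125) or Mir22 KO nCB replicate 1 (0.107).

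Lysosomal genes rose in 14 of 24 measured and fell in none, mostly by under 1 log2 unit (median 0.40). Cd63, a tetraspanin of the lysosomal membrane, stood apart, with 12.34, 12.29 and 12.21 in Mir22 KO nCB against 9.88, 10.31 and 9.55 in Mir22 KO PBS. The acid lipase gene Lipa (0.75), the galactosidase gene Glb1 (0.68), the glucuronidase gene Gusb (0.65) and the proton pump subunit genes Atp6v1a (0.81), Atp6v1c1 (0.72), Atp6v1h (0.62) and Atp6v1b2 (0.39) rose with it. The count was 9 without Mir22 KO PBS replicate 2, PBS replicate 3 or nCB replicate 1, 8 with median scaling and 3 with a median taken over all probes. Cathepsins, the lysosomal proteases, rose in 5 of 11 and fell in none (median 0.12). Ctsk, which cuts collagen and elastin, read 13.09, 13.11 and 12.85 with nCB and 11.47, 11.28 and 11.44 with PBS. Ctsd (1.27), Ctsz (1.01), Ctse (0.84) and Ctsb (0.82) rose, and Ctss, a protease of antigen processing, did not pass the test (−0.20).

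Genes of lipid-associated macrophages, a state described in fat and injured tissue, rose in 7 of 13 measured and fell in 1 (median 0.36). Trem2, their lipid-sensing receptor, read 10.69, 10.59 and 10.80 in Mir22 KO nCB against 8.36, 8.71 and 8.37 in Mir22 KO PBS, 4.65-fold higher. The glycoprotein gene Gpnmb rose by 1.54, Apoe by 1.73, the fatty acid binding protein gene Fabp5 by 1.23 and Lgals3 by 0.34. Il7r, a receptor of lymphocytes and of some macrophages, rose by 2.21, while its further probes differed by 0.31 and 0.68. Apoc1 fell to 5.86, 6.09 and 6.17 with nCB, against 7.84, 8.51 and 8.50 with PBS. Tyrobp, the adaptor of TREM2, was not called (0.01). Of 10 scavenger receptors 3 rose, Msr1, undetected with PBS and at least 2.73-fold higher, Stab1 (1.10) and Scarf1 (0.42), and the apoptotic cell receptor gene Axl fell (−0.59). The Scarf1 call was lost in 19 of 25 alternatives, among them the fits without any 1 KO array other than Mir22 KO nCB replicate 1 (adjusted p up to 0.205).

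**Figure D3:**
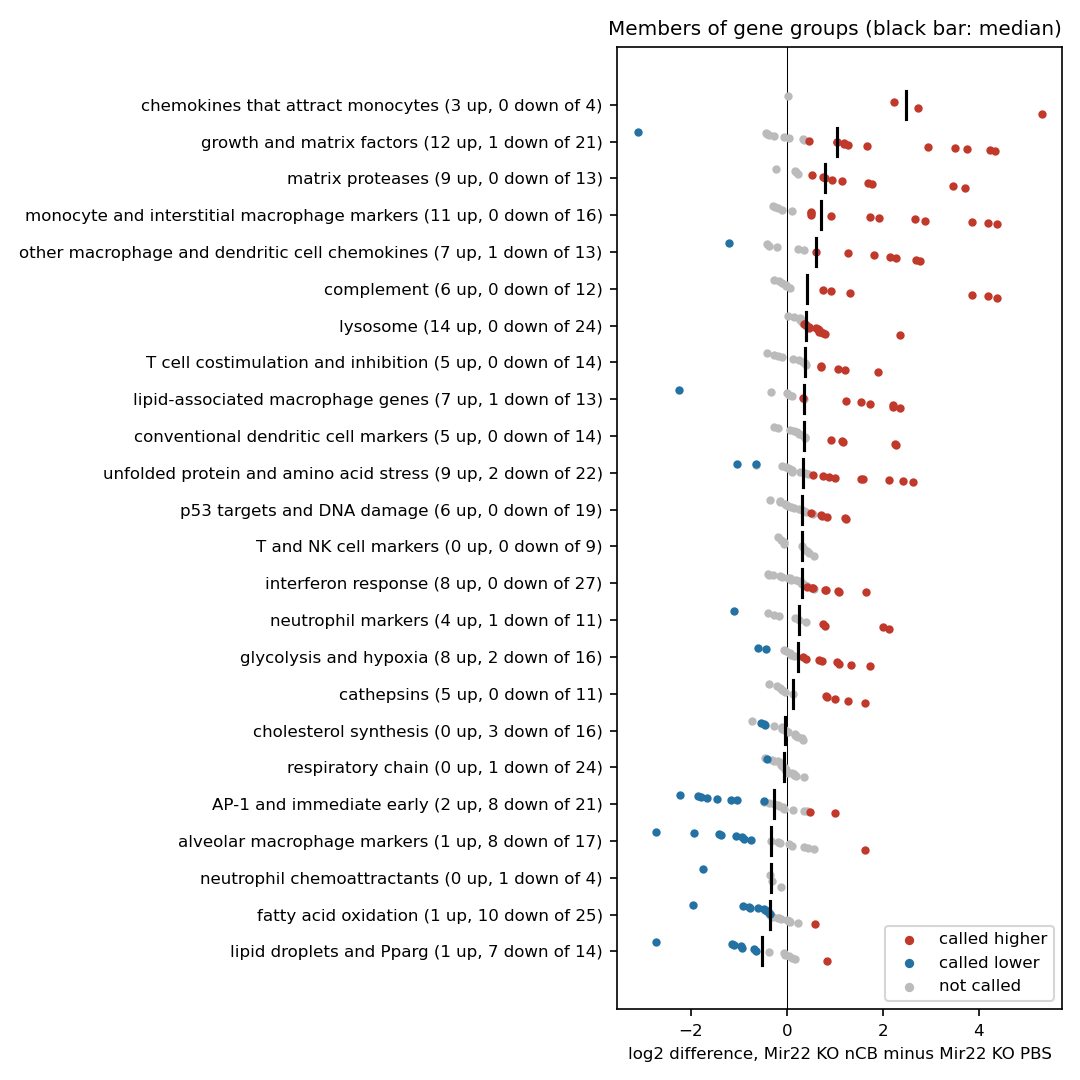
Each point is 1 measured gene of 24 gene groups, placed by its log2 difference between Mir22 KO nCB and Mir22 KO PBS, with genes called higher in red, called lower in blue and not called in grey. Black bars mark the median of each group, which runs from 2.48 for chemokines that attract monocytes to −0.51 for lipid droplet genes.

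Genes of fat storage and fat burning fell more often than they rose. In the list of lipid droplets and Pparg, 7 of 14 measured members fell and 1 rose, with a median of −0.51. Cidec, which fuses lipid droplets, read 7.21, 7.23 and 7.12 in Mir22 KO nCB against 9.95, 9.75 and 9.99 in Mir22 KO PBS, 6.57-fold lower. Pparg, the lipid-sensing nuclear receptor that alveolar macrophages need, read 9.36, 9.48 and 9.47 with nCB and 10.37, 10.28 and 10.43 with PBS, and both its further probes differed by −1.39. Dgat2, which makes triglyceride, fell by 1.15, G0s2, a lipase inhibitor, by 1.09, Cebpa by 0.95, Cideb by 0.69 and the lipase gene Pnpla2 by 0.64. Hilpda, a droplet protein induced by hypoxia, rose by 0.85, and the droplet coat gene Plin2 did not pass the test (0.11).

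Fatty acid oxidation genes fell in 10 of 25 measured and rose in 1, the carnitine acetyltransferase gene Crat (0.59), with a median of −0.35. A further Crat probe differed by −0.08 (adjusted p = 0.71), and with the mean of a gene's probes 0 members were called higher. Acaa1b read 9.01, 9.09 and 8.43 in Mir22 KO nCB and 10.77, 10.85 and 10.80 in Mir22 KO PBS, 3.90-fold lower. The other 9 fell by 0.36 to 0.91, among them the mitochondrial thiolase subunit gene Hadhb (−0.91), the isomerase genes Eci2 (−0.78) and Ech1 (−0.61) and the thioesterase gene Acot1 (−0.78). The count fell to 6 without Mir22 KO PBS replicate 2 or 3, without Mir22 KO nCB replicate 2 or 3, or with the KO arrays fitted alone, and to 3 with a median over all probes. Of 24 respiratory chain genes only Uqcrc2 was called (−0.41), and its call was lost without Mir22 KO PBS replicate 1 (adjusted p = 0.0544) or 3 (0.0627) and without nCB replicate 2.

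Glycolysis and hypoxia genes rose in 8 of 16 measured and fell in 2 (median 0.24). The glucose transporter gene Slc2a1 read 8.70, 8.84 and 8.72 in Mir22 KO nCB and 7.05, 7.02 and 7.02 in Mir22 KO PBS, 3.31-fold higher. Hk3, a hexokinase of myeloid cells, rose by 1.34, Pgam1 by 1.09, Pfkl by 0.74 and Pkm by 0.66, while Pfkp (−0.42) and the kinase gene Pdk1 (−0.60), which turns off pyruvate dehydrogenase, fell. Further probes of Pgam1 and Pfkl differed by only 0.29 (adjusted p = 0.327) and 0.12 (adjusted p = 0.772). Hif1a, Gapdh and Aldoa were not called, with differences of 0.07 to 0.09. Without Mir22 KO PBS replicate 3 or nCB replicate 2 the count of higher genes was 5, and that of lower genes was 1 without PBS replicate 2 or 3 or any 1 of the nCB replicates. Cholesterol synthesis genes rose in none of 16 and fell in 3 (Mvd −0.54, Cyp51 −0.47 and Nsdhl −0.45), or in 1 without Mir22 KO PBS replicate 2 or 3 or nCB replicate 3. The count of falls was also 1 with median scaling, the authors' values or no filter, and 0 with a median over all probes. The Nsdhl call was lost in 20 of 25 alternatives. Of 7 cholesterol efflux genes, Apoe and the LXR alpha gene Nr1h3 (0.38) rose and Apoc1 and the phospholipid enzyme gene Lpcat3 (−0.71) fell. Nr1h3 lost its call without Mir22 KO PBS replicate 1 or 3 or nCB replicate 2.

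Of 22 measured genes on a joint list for the unfolded protein response and amino acid shortage 9 rose and 2 fell, with a median of 0.33. Asns, the asparagine synthetase, read 8.55, 7.92 and 8.18 in Mir22 KO nCB against 6.14, 5.95 and 6.14 in Mir22 KO PBS, 4.40-fold higher (2.14 ± 0.16, adjusted p = 1.78e-07). Slc7a11, the cystine importer, read 7.44, 7.84 and 7.36 with nCB and 5.00, 5.34 and 5.02 with PBS, a rise of 2.43, while further probes differed by 0.07 (adjusted p = 0.823) and 0.82. Trib3, a pseudokinase that restrains ATF4, read 7.50, 7.49 and 8.07 with nCB and 4.72, 5.59 and 4.83 with PBS, and further probes differed by 0.35 and 0.78. Mthfd2, an enzyme of mitochondrial folate metabolism, rose by 1.59 and Chac1, which degrades glutathione, by 1.54, with 6.24, 6.17 and 6.65 in nCB samples and 4.64, 5.09 and 4.70 in PBS samples. The transcription factor genes Atf3, Ddit3 and Atf4 rose by 1.00, 0.89 and 0.55, and the serine enzyme gene Psat1 by 0.75. Phgdh, the first enzyme of serine synthesis, fell by 1.03 and Xbp1 by 0.65. The endoplasmic reticulum chaperone gene Hspa5 was not called (0.02), nor were Herpud1, Calr and Pdia4 (−0.10 to 0.10).

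ATF4, the factor that amino acid shortage activates, binds a composite element. Promoter stretches of 4 of these genes are shown because they carry letters of that element. The windows searched ran from 250 bases before to 50 after the start of each gene in RefSeq (GRCm38.p6), on both strands, with the motif TGATGNAAN, 1 of 9 motifs searched. It was present for 5 of the 9 members called higher (Asns, Atf3, Chac1, Slc7a11 and Trib3) and 6 of all 22, against 2.9% of the 7988 tested genes with a window. The list was made of genes known for these stresses, so its share was set by that choice and does not measure the nCB response. Of all called genes with a window, it was present for 28 of 695 higher (4.0%) and 12 of 600 lower (2.0%). The stretches are written 5′ to 3′ along the coding strand of the gene, with each match in capitals, and end at or before the start site. They lie at chr6:7693210-7693257 (minus strand) for Asns, chr1:191183411-191183469 (minus) for Atf3, chr2:119351023-119351081 (plus) for Chac1 and chr3:50443628-50443686 (minus) for Slc7a11.
Asns: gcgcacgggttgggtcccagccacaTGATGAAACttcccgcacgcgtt
Atf3: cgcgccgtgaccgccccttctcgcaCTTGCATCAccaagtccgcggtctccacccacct
Chac1: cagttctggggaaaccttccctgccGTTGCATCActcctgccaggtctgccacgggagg
Slc7a11: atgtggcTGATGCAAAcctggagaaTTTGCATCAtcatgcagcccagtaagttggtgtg
In Asns the match reads forward, 23 bases before the start, in Atf3 and Chac1 it reads on the opposite strand, and Slc7a11 holds 2 matches, 1 on each strand. The letters are a description of the sequence, and binding was not measured.

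Targets of p53 rose in 6 of 19 measured and fell in none (median 0.32). Mdm2, the ligase that degrades p53, read 9.28, 9.19 and 9.22 in Mir22 KO nCB and 7.99, 8.01 and 8.02 in Mir22 KO PBS, 2.34-fold higher. Gadd45a rose by 1.21, the cell cycle inhibitor gene Cdkn1a by 0.83, Zmat3 by 0.74, Phlda3 by 0.71 and the death gene Bbc3 by 0.52. Of 27 cell cycle genes 3 rose, Ccnd1 (1.33), Cdc20 (0.42) and Plk1 (0.37), and the replication and mitosis genes Top2a, Mcm2 to Mcm7 and Cdk1 were not called. The share called higher, 11.1%, lay near the 8.69% of all features. The Plk1 call was lost in 14 of 25 alternatives, among them the fits without any 1 of the Mir22 KO PBS replicates or without Mir22 KO nCB replicate 2 or 3 (adjusted p up to 0.132), and further Cdc20 probes differed by 0.01 to 0.34. Of 15 targets of the antioxidant factor NRF2, Slc7a11, Srxn1 (0.96) and Keap1 (0.42) rose and the glutathione transferase gene Gsta3 (−0.90) and Taldo1 (−0.39) fell. The Keap1 call was lost in 11 of 25 alternatives, among them the fits without Mir22 KO PBS replicate 1 or 3 or any 1 of the nCB replicates (adjusted p up to 0.0945). Only 1 of the falls was left without any 1 of the PBS replicates or without nCB replicate 3. Hmox1, the heme oxygenase, overlapped between groups, with 7.02, 6.98 and 7.44 in nCB samples and 6.60, 7.15 and 6.45 in PBS samples (adjusted p = 0.167). Nqo1 and Gclm differed by −0.03 and −0.07 and were not called.

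Of 17 genes of iron and metal handling 5 rose and 2 fell (median 0.15). Slc11a1, the metal pump of the phagosome, read 11.25, 11.03 and 11.10 in Mir22 KO nCB against 8.59, 8.61 and 8.42 in Mir22 KO PBS, 6.02-fold higher, and 3 further probes differed by 1.88 to 2.77. Lcn2, which binds bacterial iron carriers and is also a neutrophil marker, rose 4.00-fold. The ferritin gene Ftl1 rose by 0.54 and the iron exporter gene Slc40a1 and the metallothionein gene Mt1 fell by 0.51 each. The count of higher genes was 2 without Mir22 KO PBS replicate 1 or 3 and 3 without any of the nCB replicates, and that of lower genes 0 without nCB replicate 3. Of 13 heat shock chaperones Bag3 rose (0.52) and Dnajb1 fell (−0.37). That is 7.7% each way, near the shares of all features (8.69% higher and 7.29% lower). Dnajb1 lost its call in each of 5 fits that left out 1 KO array, all but that without Mir22 KO nCB replicate 1.

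**Figure D4:**
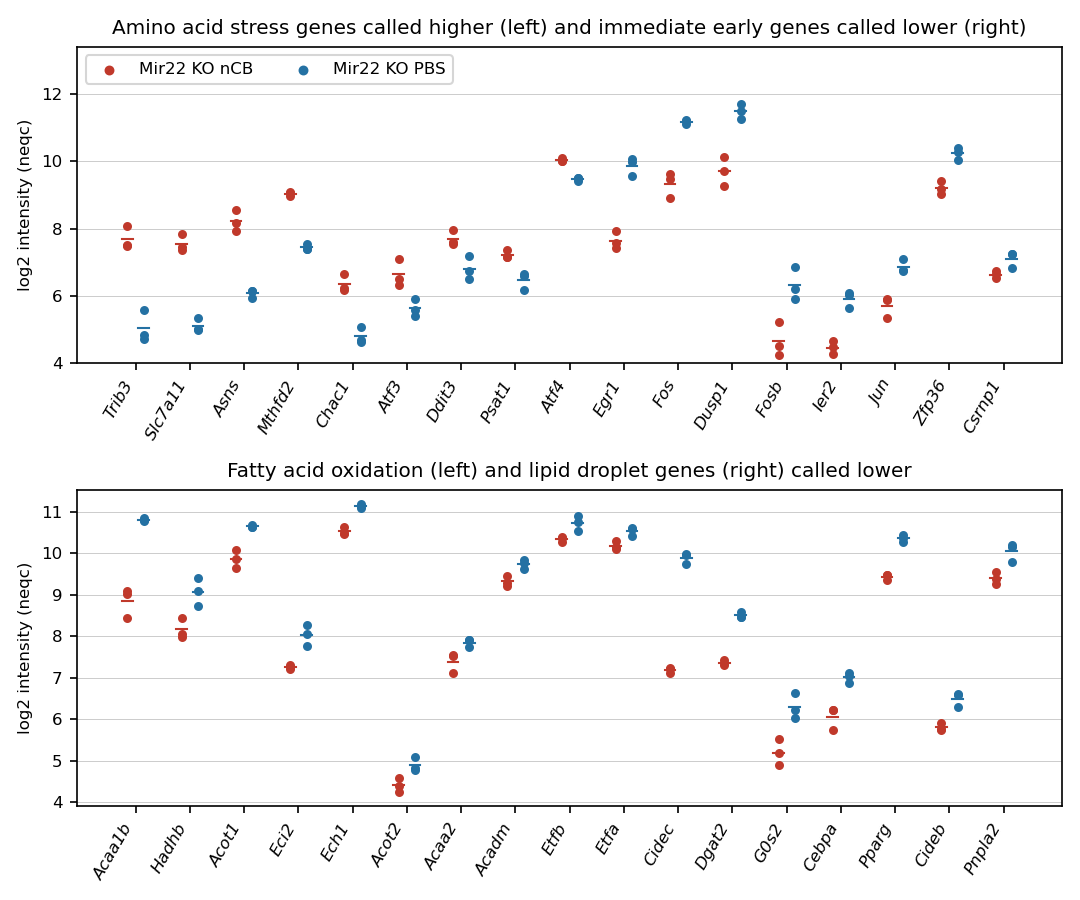
Log2 intensity per sample (points) and group mean (bars), with Mir22 KO nCB in red left of Mir22 KO PBS in blue. The top panel shows amino acid stress genes called higher and immediate early genes called lower, and the bottom panel the fatty acid oxidation and lipid droplet genes called lower, from Acaa1b (8.43 to 9.09 with nCB, 10.77 to 10.85 with PBS) to Pnpla2.

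Immediate early genes, which cells switch on within minutes of a stimulus, fell more often than they rose. Of 21 measured members 8 fell and 2 rose, Atf3 and Egr3, with a median of −0.27. Egr1 read 7.94, 7.42 and 7.58 in Mir22 KO nCB and 10.06, 9.98 and 9.56 in Mir22 KO PBS, 4.67-fold lower. Fos, a subunit of the AP-1 factor, read 9.48, 9.63 and 8.91 with nCB and 11.24, 11.21 and 11.10 with PBS, 3.59-fold lower. Its partner Jun read 5.87, 5.91 and 5.35 with nCB and 6.75, 7.10 and 6.76 with PBS, 2.24-fold lower. Dusp1, a brake on MAP kinases, fell by 1.78, Fosb by 1.66, Ier2 by 1.45, Zfp36, which destabilises cytokine messages, by 1.03 and Csrnp1 by 0.47. Junb, Jund, Fosl2 and Myc were not called, with differences of −0.27 to −0.07. Egr3 rose by 0.47, with values of 4.55 to 5.13 that lie near background and a further probe at −0.08, and its call was lost in most alternatives, which left Atf3 as the 1 rise, among them the fit without any 1 KO array other than Mir22 KO nCB replicate 1.

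Of 17 NF-kB subunits and feedback genes 4 rose and none fell (median 0.21). Socs3, a brake on cytokine signalling, rose by 1.39, Traf1 by 0.94, Nfkbie by 0.76 and Bcl3 by 0.64, and Nfkbia (0.38) and Tnfaip3 (−0.35) did not pass the test. A further Nfkbie probe differed by −0.25 (adjusted p = 0.331), and the call was lost with the mean of a gene's probes. In the IL-1 family 5 of 15 rose and 2 fell. Il1a read 7.12, 6.73 and 6.90 in Mir22 KO nCB and 5.98, 5.76 and 5.54 in Mir22 KO PBS, and the receptor antagonist gene Il1rn rose by 1.01. The decoy receptor gene Il1r2, undetected with PBS, was at least 1.51-fold higher. Il1b overlapped between groups, with 8.99, 9.09 and 9.30 in nCB samples and 8.57, 9.15 and 8.15 in PBS samples (adjusted p = 0.223), and Il18 fell by 1.05 and Nlrc4 by 0.47. Without Mir22 KO PBS replicate 3 the rises in this family numbered 3.

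Of 14 genes of IL-6, IL-12, TNF and TGF-beta signalling 2 rose and 2 fell. The receptor genes Il6ra and Il6st fell by 0.69 and 0.62, and the cytokine subunit gene Ebi3 (1.10) and Ltbp3 (0.72) rose. The Il6st call was lost without Mir22 KO PBS replicate 1 or 2 or nCB replicate 1, and that of Ltbp3 without PBS replicate 2 or nCB replicate 1 or 2. Tnf and Tgfb1 did not pass the test (0.43 and −0.28). Il6 was detected on 2 and Il23a on 1 of the 12 arrays, below the filter, and Cxcl5 and Spp1 have no listed probe.

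Interferon response genes rose in 8 of 27 measured and fell in none, with a median of 0.31 (0.28 at bounds). Usp18, which removes ISG15 from proteins, read 6.38, 6.04 and 6.68 in Mir22 KO nCB and 5.37, 4.55 and 4.22 in Mir22 KO PBS, 3.14-fold higher, though its further probe differed by 0.45. Its PBS values of 4.55 and 4.22 lay below the lowest intensity detected on their arrays (4.6 and 4.55), so this fold is uncertain. Oasl2 rose by 1.08, Rsad2, the antiviral enzyme viperin, by 1.07, Ifi205 by 0.81, Isg15 by 0.79, Ifit3 by 0.54 and Ifi27 by 0.43. Further probes of Oasl2 and Ifi205 differed by −0.08 each, and the Oasl2 call was lost with the authors' values. Irf7 was undetected with PBS and at least 1.21-fold higher, and Cxcl10, detected on 2 nCB arrays and no PBS array, was not called. The count of higher genes was 4 without Mir22 KO PBS replicate 3, with median scaling and with the authors' values, and 5 without Mir22 KO nCB replicate 3, where 2 others were called lower. The same 27 genes held 19 called higher and 0 called lower in WT cells, with a median of 0.60. In WT cells 8.88% of all features were called higher and 9.22% lower. WT counts of the other lists are not given here, and counts of calls do not test a difference between genotypes. That difference passed its own test for 2 of the 27, Cxcl9 and Cxcl10, both described with the genotype comparison. The Cxcl10 call was lost in 16 of 22 alternatives.

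Promoter stretches of 3 of these genes are shown because they carry the letters of the interferon response element, GAAA repeated with any 2 bases between the copies, searched on both strands. These were found for 13 of the 24 measured members with a window and 4 of the 6 called higher (Ifi205, Ifit3, Isg15 and Rsad2), against 4.0% of tested genes. The list was made of known interferon genes, so its share was set by that choice and does not measure the nCB response. Of all called genes with a window, 4.5% of those higher and 3.5% of those lower held these letters. The antioxidant response element, another motif searched, was found for 4 of the same 6, against 16.7% of tested genes. The stretches are at chr4:156200850-156200909 (minus strand) for Isg15, chr12:26456538-26456597 (minus) for Rsad2 and chr5:92349068-92349127 (minus) for Cxcl10 in GRCm38.p6, from RefSeq, with all matches in capitals.
Isg15: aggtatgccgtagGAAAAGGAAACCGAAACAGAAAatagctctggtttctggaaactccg
Rsad2: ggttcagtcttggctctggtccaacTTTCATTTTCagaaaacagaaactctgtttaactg
Cxcl10: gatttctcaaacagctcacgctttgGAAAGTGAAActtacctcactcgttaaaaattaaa
Isg15 holds 3 overlapping matches on the coding strand, Cxcl10 holds 1 on that strand and Rsad2 1 on the other. Cxcl10 is shown because its nCB effect differed between genotypes. The letters were 1 of the 9 motifs searched, and binding was not measured.

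Antigen presentation genes moved both ways. Of 13 MHC class II genes 3 fell and 2 rose (median −0.09). H2-DMa, which loads peptides onto class II, read 10.11, 10.26 and 10.44 in Mir22 KO nCB and 11.51, 11.48 and 11.56 in Mir22 KO PBS, 2.37-fold lower. H2-DMb2 and H2-DMb1 of the same complex fell by 0.61 and 0.46, H2-Eb1 rose by 0.51 and H2-Eb2 by 0.47, and Cd74, H2-Ab1 and H2-Aa did not pass the test. H2-DMa was the only fall left without Mir22 KO PBS replicate 2 or 3 or nCB replicate 1 or 2, and neither rise was left without PBS replicate 2 or nCB replicate 3. The H2-Eb1 call was lost in 17 of 25 alternatives and that of H2-Eb2 in 8, both with median scaling among them. The calls of H2-DMb1 and H2-DMb2 were lost in 9 and 7. Of 16 class I genes Nlrc5, their transactivator (1.29), H2-K1 (0.48) and H2-T23 (0.43) rose and the proteasome gene Psmb8 fell (−0.34), a call that each single left-out KO array ended.

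Genes of T cell costimulation rose in 5 of 14 measured and fell in none (median 0.37, or 0.32 at bounds). Cd86, a ligand of CD28, read 8.48, 8.30 and 8.60 in Mir22 KO nCB against 6.53, 6.49 and 6.62 in Mir22 KO PBS, 3.76-fold higher. Cd40 rose by 1.21, Cd200 by 1.07 and Tnfsf14 by 0.72, and Cd276 was at least 1.48-fold higher. Cd80, Cd274 and Cd83 did not pass the test, with differences of 0.26 to 0.40. Without Mir22 KO PBS replicate 2, 1 member was called lower. Among 16 genes of alternative activation Arg1, Ccl17, the fibronectin gene Fn1 (1.04) and Mgl2 (0.92) rose, while Retnla, Chil3 and Mrc1 did not pass the test (−0.20, 0.10 and −0.33). Arg1, the arginase of alternatively activated macrophages, read 6.75, 6.33 and 6.48 with nCB, was undetected with PBS and was at least 3.90-fold higher.

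Growth and matrix factors rose in 12 of 21 measured and fell in 1, Gal, with a median of 1.04. Pdgfa, which drives fibroblast growth, read 8.58, 8.42 and 8.17 in Mir22 KO nCB and 4.74, 5.34 and 4.55 in Mir22 KO PBS, 11.4-fold higher, and Pdgfb rose by 1.18. Inhba, the activin A subunit, read 7.40, 7.15 and 7.42 with nCB and 4.29, 4.61 and 4.22 with PBS, 7.74-fold higher. The PBS values of 4.29 and 4.22 lay below the lowest intensity detected on their arrays (4.52 and 4.55), so this fold is uncertain. Across the alternatives the Inhba difference ran from 1.385 to 5.917 and that of Pdgfa from 2.021 to 5.085. Igf1 rose by 1.67 and Gas6, a ligand of the receptors Axl and Mertk, by 1.20, and Csf1, the macrophage growth factor, was undetected with PBS and at least 2.07-fold higher. Vegfa was called (1.04 ± 0.29, adjusted p = 0.0221) although its groups overlapped, with 4.92, 5.71 and 6.37 in nCB samples and 4.21, 4.96 and 4.70 in PBS samples. Tgfb1, Tgfbi, Sparc and Ccn2 of this list did not pass the test.

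Receptors of the cell surface changed in both directions, beside 8.69% of all features called higher and 7.29% called lower. Of 15 C-type lectins 6 rose and 2 fell (median 0.24). Clec4d, a receptor for mycobacterial lipid, read 10.40, 10.17 and 10.13 in Mir22 KO nCB against 6.97, 7.74 and 7.46 in Mir22 KO PBS, and Clec5a, Clec4e and Clec4n rose by 1.42, 0.91 and 0.63. Clec4a3 and Clec4b1 fell by 1.14 and 0.97. Of 13 integrins Itgae, Itga5 (0.91) and Itgam, undetected with PBS and at least 1.56-fold higher, rose, and Itgad and Itgal fell. Itgal (−0.39) lost its call without any 1 of 5 KO arrays. Of 11 Fc receptor genes Fcrls rose (2.88), Fcgrt, the receptor that recycles antibody, fell (−1.30), and the Fc gamma receptor genes Fcgr1, Fcgr2b, Fcgr3 and Fcgr4 were not called. Of 19 Toll-like receptor genes Tlr13 (1.00), Irak2 (0.91) and Cd180 (0.65) rose and Tlr8 (−1.26) and Tirap (−0.40) fell. Tirap lost its call without any 1 of the 6 KO arrays. The shares called were 9.1% higher and 9.1% lower for Fc receptors, near those of all features, and 15.8% and 10.5% for Toll-like receptors.

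Histone deacetylases and reported targets of miR-22 were read because they have been tied to miR-22 elsewhere. Hdac4, a class IIa histone deacetylase reported as a target of miR-22, read 6.40, 6.75 and 6.12 in Mir22 KO nCB and 5.82, 5.47 and 5.56 in Mir22 KO PBS. The groups did not overlap, and the difference was 0.81 ± 0.16 (adjusted p = 0.00247). With a median taken over all probes the adjusted p was 0.051. Hdac9 was undetected with PBS and at least 1.26-fold higher, Sirt4 rose by 0.63, and Hdac5 (−0.37), Sirt5 (−0.64) and Sirt7 (−0.36) fell. The calls of the 3 lower genes numbered 0 without Mir22 KO PBS replicate 2 or nCB replicate 3 and 1 without PBS replicate 1 or 3 or nCB replicate 1, and Sirt4 lost its call without PBS replicate 1. Sirt1 and Hdac6 were not called. Of 14 measured targets reported for miR-22, Hdac4 and Cdkn1a rose, Rgs2, a brake on G protein signalling, fell by 0.96, and the median was −0.03. Without Mir22 KO nCB replicate 1, 2 of the 14 were called lower. Tlcd2, which lies beside Mir22hg on chromosome 11, rose by 0.59 with nCB (adjusted p = 0.00848), a call lost with the authors' values (0.174). Both KO groups lack miR-22 by label, so the comparison within them does not measure its effect on these genes.

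Part of the called genes were detected in 1 group only. Detection p follows the same intensities as the test, so this is not a second line of evidence. The counts below were taken among called features only. Of the features called higher, 83 were detected on all 3 Mir22 KO nCB arrays and on no Mir22 KO PBS array, 66 of them with a symbol. Of those called lower, 27 showed the reverse, 19 with a symbol. Beside Ccl7, Npy, Ccl12, Ccl2 and Arg1, the set detected only with nCB was led by the potassium channel gene Kcnk13 (at least 4.09-fold), the uridine phosphorylase Upp1 (3.82-fold), Slamf7 (2.98-fold), Folr2 (2.97-fold), the claudin gene Cldn23 (2.78-fold) and the drug exporter gene Abcb1b (2.76-fold). In the set detected only with PBS, Itgad and Ppp1r9a were followed by smaller bounds, with Cd300lg at 1.65-fold and the sulfotransferase Sult4a1 at 1.61-fold. Bounds ran down to 1.06-fold (Tnmd) in the set detected only with nCB and 1.07-fold (Kcnn3) in the other. Some of these genes therefore lay just across the detection limit.

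Where a called gene had further detected probes, these gave a second reading. For 702 called genes 994 such probes were present, of which 84.8% differed in the same direction and 41.2% were called the same way, while 3 were called the opposite way. Besides those given beside their genes, further probes had the opposite sign or differed by under 0.1 for Adam15 (−0.09 to 0.03), Adam17 (−0.09), Atp6v1h (−0.01), Bbc3 (−0.10), H2-Eb2 (−0.06), Psmb8 (−0.09) and Spint1 (0.07). The same held for 2 of 3 further probes of Acta2 (−0.22 and −0.10) and for 1 of several of Gusb (−0.16), H2-K1 (−0.01), Nsdhl (0.04) and Tirap (0.02). Others had the same sign but were not called, among them those of Fn1 (0.48 and 0.206), Rgs2 (−0.315) and Itga5 (0.408). With the mean of a gene's probes the calls of Acta2, Cdc20, Gusb, H2-Eb2, H2-K1, Hdac5, Keap1, Nr1h3, Nsdhl, Psmb8, Sirt5, Spint1 and Tirap were lost, as were those of Crat and Nfkbie.

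The same exposure was measured in WT cells, with separate PBS samples. Of the features called in Mir22 KO cells 93.9% had the same sign in WT cells, against 68.2% of all features. Among features called higher by more than 2 log2 units in Mir22 KO cells 98.6% of 69 were also called higher in WT cells, with a median difference of 2.56 in Mir22 KO and 2.83 in WT. That share was 90.2% of 215 for rises of 1 to 2, 62.1% of 568 for 0.5 to 1 and 39.3% of 224 below 0.5. For falls the shares were 100% of 7 above 2 log2 units, 95.2% of 104, 66.7% of 513 and 44.6% of 278. A feature missed in WT cells is not shown to differ between genotypes, which the interaction term tests directly. In simulated data that term recovered 8% of differences of 0.5 log2 units, 78% of differences of 1 and 98% of differences of 1.5. These differences were planted only in features read well above background, so recovery for genes near background was not tested. The simulated noise was independent for each feature, so the rates hold for that setting.

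The effect of nCB differed between genotypes for 16 of 12380 features (0.129%), 5 with a higher and 11 with a lower effect in Mir22 KO cells, and for 1228 at an unadjusted p under 0.05. The count was 6 to 9 without any 1 of the Mir22 KO PBS arrays, Mir22 KO nCB replicate 1, WT nCB replicate 1 or WT PBS replicate 1 or 2, and 31 without Mir22 KO nCB replicate 3. Arg1 rose in both, by 2.26 in Mir22 KO and 3.66 in WT, and read 7.92, 7.87 and 7.98 in WT nCB (difference of effects −1.41 ± 0.17, adjusted p = 0.0021). Cxcl9, a chemokine for T cells, differed by −0.37 in Mir22 KO cells and rose by 1.75 in WT cells, with 5.97, 5.94 and 6.61 in Mir22 KO nCB, 6.80, 6.48 and 6.34 in Mir22 KO PBS, 7.88, 7.25 and 7.82 in WT nCB and 5.82, 5.94 and 5.95 in WT PBS (adjusted p = 0.00381). Both calls were lost with the authors' values (adjusted p = 0.192 for Arg1 and 0.0794 for Cxcl9), that of Cxcl9 also with no filter on detection, and each held in every fit that left out 1 array. Cxcl10, a chemokine for the same receptor, differed by 0.36 in Mir22 KO and rose by 1.47 in WT (adjusted p = 0.0396). Cldn23 rose by 1.72 in Mir22 KO and 0.53 in WT (adjusted p = 0.0118, lost without Mir22 KO PBS replicate 3 at 0.0563, with either median scaling at 0.134 and 0.161 and with the authors' values at 0.188), and the long non-coding RNA Neat1 rose by 1.44 in Mir22 KO cells and differed by 0.15 in WT cells (adjusted p = 0.0252).

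Ear6 and Rnase2b, ribonuclease genes of the eosinophil-associated family, were detected on none of the 6 Mir22 KO arrays and on all 6 WT arrays. Ear6 read 4.36, 4.30 and 4.24 in Mir22 KO nCB and 4.34, 4.45 and 4.31 in Mir22 KO PBS, against 8.53, 9.63 and 8.47 in WT nCB and 5.30, 5.62 and 5.99 in WT PBS. Their difference between genotypes (−3.31 and −1.62) is therefore the rise in WT cells set against a signal at background. Ear genes are near-identical copies in the mouse genome, so a probe can bind several of them. Flt1, a VEGF receptor, fell by 1.19 in Mir22 KO and 2.25 in WT (adjusted p = 0.0396). Ndrg1, a hypoxia gene, fell by 0.83 in Mir22 KO and differed by 0.43 in WT (0.0459). Gpr171 fell by 0.70 in Mir22 KO and rose by 0.90 in WT (0.0225), and Klk1b11 fell by 0.76 in Mir22 KO and rose by 0.61 in WT (0.0211). For Ndrg1, Gpr171, Klk1b11, Cxcl9, Sorl1, Ripor2 and Gm4951 the PBS groups already lay apart between genotypes. The difference of effects in these genes includes that gap. Cxcl9 read 6.34 to 6.80 in Mir22 KO PBS and 5.82 to 5.95 in WT PBS. Sorl1 read 4.89 to 5.22 and 5.48 to 5.70 in the same groups, and Ripor2 5.32 to 5.55 and 5.75 to 5.97. Gm4951 read 5.01 to 5.05 in Mir22 KO PBS and was undetected in WT PBS. Ndrg1 read 6.26 to 6.64 in Mir22 KO PBS and 5.17 to 5.71 in WT PBS, while its nCB groups overlapped. Klk1b11 read 6.94 to 7.13 in Mir22 KO PBS and 4.78 to 5.22 in WT PBS, and stayed higher in Mir22 KO with nCB. Gpr171 read 7.86 to 8.40 in Mir22 KO PBS and 7.15 to 7.63 in WT PBS, and was lower in Mir22 KO with nCB. The Klk1b11 call was lost in 8 of 22 alternatives, among them the fits without WT PBS replicate 1, Mir22 KO PBS replicate 1 or 3 or Mir22 KO nCB replicate 1 (adjusted p up to 0.0911) and the authors' values (0.188). Gpr176 differed by 0.20 in Mir22 KO and rose by 1.54 in WT (0.00704), a call lost with the authors' values (0.183). Calls for Cxcl10, Neat1, Flt1, Ndrg1, Gpr171, Sorl1, Ripor2 and Gm4951 were each lost in 10 to 17 of 22 alternatives, among them most fits that left out 1 array.

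Hdac4 was just outside this threshold. It rose in Mir22 KO cells (0.81) and differed by −0.39 in WT cells, where it read 5.78, 5.74 and 5.70 with nCB and 6.39, 6.04 and 5.97 with PBS. The difference between the effects was 1.19 ± 0.23 (adjusted p = 0.0544).

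**Figure D5:**
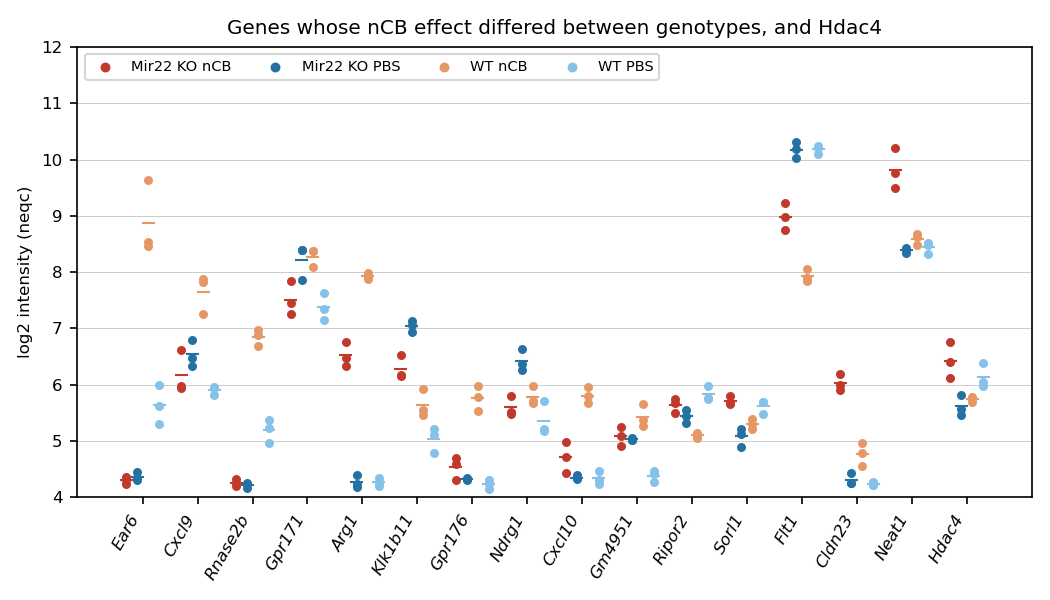
Log2 intensity per sample (points) and group mean (bars) of the 15 named genes whose nCB effect differed between genotypes, and of Hdac4, in the order Mir22 KO nCB, Mir22 KO PBS, WT nCB and WT PBS. Arg1 lies at 6.33 to 6.75 in Mir22 KO nCB and at 7.87 to 7.98 in WT nCB, and at background in both PBS groups, while the Hdac4 mean is highest in Mir22 KO nCB.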

How the data were processed

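Per the labels, 100 ng of total RNA per sample was hybridised to Illumina mouse bead arrays, and per the submitters' processing notes GenomeStudio was used. The deposited table holds per probe the intensity of each array, and whether the authors subtracted a background is not given in the sources used here. Per the file headers, the authors deposited a detection p-value beside each intensity, and it moved in steps of 1 in 936. The authors' own deposited log2 values (24952 probes) served as an alternative. Each array's column there had a median of 3.12 and a rank correlation of 1.0 with the intensities of the same array, so the direction is settled, while the method that gave these equal medians is not stated. Of 45281 probes, 20501 had 1 gene symbol in the platform annotation and 11 had several.

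Intensities of all 12 arrays were background-corrected, quantile-normalized and put on the log2 scale with neqc (limma 3.58.1, R 4.3.3, offset 16). Probes detected (p under 0.05) by 3 or more of the 12 arrays entered the fit, and each symbol was represented by its probe with the highest mean. limma fitted 4 group means over 12 arrays with empirical Bayes moderation, and contrasts gave the nCB effect in Mir22 KO cells, in WT cells and their difference, with Benjamini-Hochberg adjustment at 0.05. A gene undetected on every array of a group has only a bound there, against the lowest detected intensity of each array (log2 4.52 to 4.60 on the KO arrays). Such bounds hold for neqc with offset 16 and are not minima across the alternatives. There the difference of Npy ran from 1.976 to 6.972, of Arg1 from 0.933 to 5.657 and of Ccl2 from 0.912 to 5.422. That of Itgad ran from −6.412 to −1.421. Precision is limited by 3 arrays per group (median SD per feature 0.156 in Mir22 KO nCB and 0.157 in Mir22 KO PBS), and an exact permutation test of 3 against 3 cannot go below 0.1. The procedure was tested on simulated data, where the KO comparison recovered 50% of changes of 0.5 log2 units and 96% of changes of 1, with 4.95% false calls. Changes were planted only in features read well above background, so these rates do not cover genes near background. They were planted in 50 of 12380 features per size, with independent noise for each feature. The real comparison called 1978 features, so the simulated rates may not carry over to it.

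The comparison, the 50 gene lists (849 genes) and the tests were chosen with earlier results of these data known. Genes were named by rule: the 15 largest changes in each direction among called genes without overlap, up to 4 members per list with the smallest p, every gene with a genotype difference up to 10 per direction, a set of genes always reported (Ccl17, Cxcl1, Cxcl5, Fos, Hdac4, Hdac6, Hmox1, Il1b, Il23a, Il6, Itgax, Jun, Mir22hg, Mmp9, Mmp12, Sirt1, Spp1, Tlcd2), and members called against the majority of their list. All further genes named, which are list members beyond those 4 and genes detected in 1 group only, were chosen after their values were seen. The alternatives covered scaling, background correction, filters, probe choice, the replicate block, a minimum fold and each array left out.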

Additional observations from a re-analysis of the deposited data

Results flagged for a closer look

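The effect of nCB differed between Mir22 KO and WT cells, by limma's interaction term with adjusted p under 0.05, for 16 features, which are given as the effect in Mir22 KO cells minus the effect in WT cells (log2). Ear6 (−3.31) and Rnase2b (−1.62) were undetected on all Mir22 KO arrays. A probe without a gene symbol (−2.82) differed by 0.60 in Mir22 KO cells and 3.42 in WT cells, and read 9.86, 10.37 and 10.70 in Mir22 KO nCB, 9.44, 9.92 and 9.77 in Mir22 KO PBS, 10.50, 9.94 and 9.57 in WT nCB and 6.64, 6.63 and 6.48 in WT PBS. In that probe the WT PBS samples were the only low ones. Arg1 (−1.41), Cxcl9 (−2.12), Cxcl10 (−1.11), Gpr176 (−1.33), Klk1b11 (−1.37), Gpr171 (−1.61), Ndrg1 (−1.25) and Gm4951 (−1.0) had a lower effect in Mir22 KO cells. Cldn23 (1.18), Neat1 (1.28), Flt1 (1.06), Sorl1 (0.96) and Ripor2 (0.93) had a higher one, which for Flt1 is a smaller fall. The simulated test of this difference made 8.97% false calls, a rate that holds for the simulated setting.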

How the results depend on the processing

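The count of features called in Mir22 KO cells (1076 higher and 902 lower) stayed within 1.5 times under every planned setting other than limma treat. Median scaling gave 775 higher and the 6 KO arrays alone gave 678 lower. Requiring a change beyond 1.5-fold (limma treat) left 209 higher and 71 lower. Median scaling over all probes, chosen after seeing the data, gave 497 higher, 300 lower and 6 differences between genotypes; the cause was not tested. Leaving out 1 array gave 804 to 1087 higher, 647 to 907 lower and 6 to 31 differences between genotypes. The 16 differences between genotypes numbered 6 with the authors' values, 9 with no filter and 10 with the replicate number as a block. With that block 989 features were higher and 812 lower in Mir22 KO cells. The replicate numbers were not taken as pairs, since 5 of 18 same-number pairs had deviations correlated over 0.1 (−0.297 to 0.223) and 2 of 6 KO samples correlated best with their own number. Of 184 named genes called in the KO comparison, 86 kept the call under every alternative and 0 reversed. Genes near background have only bounds, which limits small changes of low genes most.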
